A study of Mus musculus with 5 samples.

Results

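The smooth muscle contractile programme is the set of filament, myosin, dense body and calcium handling genes that lets the muscular wall of the gut contract. It was described here by 36 genes chosen by name. Of these, 32 were measured by at least 1 probe set annotated to that symbol alone, out of 12393 such genes on the array, and they had 54 of the 22626 probe sets tested. Ppp1r12a, Synm, Itpr1 and Chrm2 had no such probe set and were not analysed here. Transcript levels came from the colons of 5 mouse embryos at E18.5, each on an array of its own. Embryos called HNF4 null (null_59, null_60 and null_426) carried the FoxA3Cre transgene and 2 loxP-flanked alleles of HNF4, a nuclear receptor gene of the gut epithelium. The control embryos (CONTROL_406 and CONTROL_421) carried the same transgene and 1 such allele beside a wild-type one, so the controls were heterozygous and also held Cre. Foxa3, for which the Cre line is named, is a gene of the gut endoderm, whereas intestinal smooth muscle arises from the surrounding mesenchyme. The comparison asks whether muscle transcripts of the colon differ when both floxed alleles are present.

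Smooth muscle contracts when calcium, bound to calmodulin, activates myosin light chain kinase, which phosphorylates the regulatory light chains and lets myosin pull on actin filaments. The filaments are anchored in dense bodies, which take the place of the Z lines of striated muscle, and a phosphatase reverses the phosphorylation. The transcription factor SRF and its coactivator myocardin switch many of these genes on through a DNA element called the CArG box. In the fetal gut the circular muscle layer forms before the longitudinal one, and interstitial cells of Cajal between the layers later act as pacemakers.

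The deposited values were intensities on a linear scale, 1 per probe set and array, and intensities below are as deposited. Differences are on the log2(intensity + 16) scale after quantile normalisation, null minus control, with 95% intervals from a limma fit over all probe sets. They understate the change of dim probe sets. The labels do not say how the arrays were scaled. One control array stood apart in 2 of the 3 end ratios measured: the array maker's probe sets for the 3' and 5' ends of Gapdh gave a 3' to 5' ratio of 0.794 to 0.895 in the null arrays, 0.767 in CONTROL_406 and 1.47 in CONTROL_421, while that of the transferrin receptor was 2.71 to 3.48, 2.69 and, lowest, 1.51 in the same order, so the 2 ratios of CONTROL_421 departed in opposite directions. That of actin did not set it apart, at 1.49 to 1.83 in the null arrays, 1.44 in CONTROL_406 and 1.76 in CONTROL_421. Across probe sets, which are not independent, pairs of null arrays correlated at 0.960 to 0.974 and the control arrays at 0.958. CONTROL_406 correlated with null_59 and null_60 at 0.970 and 0.973, as high as pairs of null arrays did, and with null_426 at 0.949, while CONTROL_421 correlated with the null arrays at 0.946 to 0.955. The arrays thus did not fall into 2 groups by genotype in these correlations. Differences against each control array alone are given for many of the genes.

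No gene of the contractile programme passed the test between null and control colons. Tagln, Myh11, Myl9 and Tpm1 read 1.45-fold to 1.49-fold higher in null colons by their brightest probe sets, and for each the gap was larger against CONTROL_421 than against CONTROL_406. By limma, 0 of the 54 member probe sets passed an adjusted p of 0.05, where 0.124% of all probe sets did, and the lowest adjusted p among members was 0.624. At an unadjusted p under 0.05, 6 member probe sets were higher in null colons and 1 was lower, which is 11.1% and 1.85% of the members against 2.82% and 4.33% of all probe sets. Of the 54, 40 had a difference above 0 (74.1%), as had 52.9% of all. The 6 were those of Tagln, Myh11, Myocd, 1 of the 3 of Mylk and 2 of the 3 of Tpm1, and the lower one was that of Casq2. Without CONTROL_421 the numbers were 0 higher and 1 lower (2.72% and 2.57% of all probe sets), and without CONTROL_406 they were 11 higher and 3 lower (5.16% and 4.93% of all). The median difference over the 54 probe sets was 0.14, against 0.02 over all probe sets. Set against each control array alone, the members' median was 0.19 against CONTROL_421 and 0.08 against CONTROL_406, with 0.01 over all probe sets in each case. The null mean was above CONTROL_421 in 42 member probe sets (77.8%, against 51.1% of all) and above CONTROL_406 in 37 (68.5%, against 50.9%). These comparisons share the null arrays. In whole tissue, a change in the number of muscle cells and one in the RNA of each muscle cell cannot be told apart. Of 10 epithelial marker genes by their brightest probe sets, 3 were lower in null colons at an unadjusted p under 0.05 (30%, against 4.24% of all genes), and their part in the muscle values was not tested.

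In the deposited values, all 3 null arrays lay above both control arrays in 9 member probe sets, 16.7% against 14.6% of all probe sets, and below both in 2, 3.70% against 9.64%. After quantile normalisation they lay above in 17, 31.5% against 12%, and below in 2, 3.70% against 11.6%. The higher count thus rests on the normalisation, since median centring also gave 9, 16.7% against 11.0% of all. The brightest probe sets of Myh11, Myl9, Tpm1, Tpm2, Flna, Csrp1, Cnn2, Cald1 and Kit overlapped as deposited. After quantile normalisation all null arrays lay above both controls in them. For Myl6 the groups were apart as deposited and overlapped after it. Ranges and overlaps given below for single genes are those of the deposited values unless stated.

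The transcription factors come first in the programme. Srf, serum response factor, read 528, 636 and 438 in null_59, null_60 and null_426, against 530 and 412 in CONTROL_406 and CONTROL_421. Its groups overlapped, with a difference of 0.20 (95% interval -0.22 to 0.63, adjusted p = 0.829). This was 0.06 against CONTROL_406 and 0.35 against CONTROL_421, and with 1 null array left out it ran from 0.11 (without null_60) to 0.31 (without null_426). Its dimmer probe set differed by -0.06. Myocd, myocardin, the muscle-restricted coactivator of SRF, read 249, 261 and 212 in null colons, against 188 and 166 in control colons. All 3 null arrays lay above both control arrays in this probe set, and the difference of 0.39 (0.01 to 0.76, adjusted p = 0.695) was much the same against CONTROL_421 (0.44) and CONTROL_406 (0.34). The second probe set of Myocd, 1425808_a_at, read 204, 190 and 208 in null colons and 172 and 199 in control colons. There the groups overlapped and the difference was 0.09, so the higher level rested on 1 of 2 probe sets.

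The promoters of the members were searched for the CArG box, the element that SRF binds, in windows from 250 bases before to 50 after each start. RefSeq windows (GRCm38.p6) were at hand for 30 of the 36 genes, the others being Actg2, Atp2a2, Itpr1, Myh11, Myocd and Tagln. An exact CArG box, which reads as a CArG box on either strand, was found in 4 of the 35 windows of these genes (11.4%), against 1.63% of all 32851 windows. The stretches that hold the boxes are shown because they include Srf itself and Myl9, a member with a large gap between the control embryos, with the boxes in capitals, 5' to 3' on the gene's strand.
Srf (chr17:46556185-46556274, minus strand): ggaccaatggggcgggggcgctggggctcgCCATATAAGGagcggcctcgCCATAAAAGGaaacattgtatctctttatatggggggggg
Myl9 (chr2:156775273-156775342, plus strand): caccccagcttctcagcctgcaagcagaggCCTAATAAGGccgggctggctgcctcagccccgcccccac
Myl6 (chr10:128493020-128493089, minus strand): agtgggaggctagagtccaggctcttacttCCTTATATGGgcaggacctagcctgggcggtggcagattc
Cnn2 (chr10:79988514-79988583, plus strand): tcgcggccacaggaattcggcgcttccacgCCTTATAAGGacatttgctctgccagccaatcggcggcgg
Srf carried 2 boxes, CCATATAAGG and CCATAAAAGG, whose first bases lay 82 and 62 bases before the start, while the boxes of Myl9 (CCTAATAAGG), Myl6 (CCTTATATGG) and Cnn2 (CCTTATAAGG) began 161, 50 and 56 bases before it. None of the 4 genes passed the test. By their brightest probe sets the log2 difference, null minus control, was 0.20 for Srf, 0.57 for Myl9, 0.27 for Myl6 and 0.30 for Cnn2, while CONTROL_406 was 1.23-fold, 2.01-fold, 0.923-fold and 1.06-fold the level of CONTROL_421 for these genes in that order. A match of letters is a description of the sequence, and a window with no match was read as nothing more than that.

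Neither actin of smooth muscle differed detectably by its brightest probe set. Acta2, alpha smooth muscle actin, read 5235, 5106 and 5085 in null colons, against 5074 and 5196 in control colons, by probe set 1416454_s_at. The groups overlapped and the arrays lay within a narrow band, with a difference of 0.03 (95% interval -0.32 to 0.38, adjusted p = 0.977). A second, dim probe set of Acta2 read 38.9, 34.1 and 36.1 in null colons and 23.7 and 22.3 in control colons, apart in all arrays but with a difference of 0.34 that did not pass (adjusted p = 0.726). Actg2, gamma smooth muscle actin, which is the main contractile actin of visceral muscle, read 3694, 3601 and 3491 in null colons, against 3701 and 2800 in control colons. CONTROL_421 was the low array and CONTROL_406 the highest of the 5, so that the difference of 0.19 (-0.20 to 0.59, adjusted p = 0.828) was 0.0044 against CONTROL_406 and 0.38 against CONTROL_421. The 2 actins are near-identical in sequence, and how far the probe sets separate them is uncertain.

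Among the proteins that sit on actin, Tagln, transgelin, an actin-crosslinking protein and early marker of smooth muscle, had the smallest p of the members by a brightest probe set. It read 3119, 2710 and 2786 in null colons, against 2510 and 1628 in control colons, and all 3 null arrays lay above both controls. The difference was 0.56 (95% interval 0.10 to 1.02, adjusted p = 0.633), a 1.47-fold difference, with 0.27 against CONTROL_406 and 0.85 against CONTROL_421. Cnn1, calponin 1, which binds actin and damps the myosin ATPase, read 1111, 1503 and 1027 in null colons, against 1261 and 1050 in control colons. Its groups overlapped, and the difference of 0.14 (adjusted p = 0.882) was 0.03 against CONTROL_406, 0.24 against CONTROL_421 and 0.021 without null_60. Cnn2, a calponin also made outside muscle, read 1100, 1226 and 914 in null colons, against 980 and 869 in control colons. Only null_426 lay within the control range, and the difference was 0.30 (-0.07 to 0.66, adjusted p = 0.754). Lmod1, leiomodin 1, which nucleates actin filaments in smooth muscle, and the brightest probe set of Cald1, caldesmon, differed by 0.10 and 0.15, with overlapping groups in the deposited values.

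**Figure D1:**
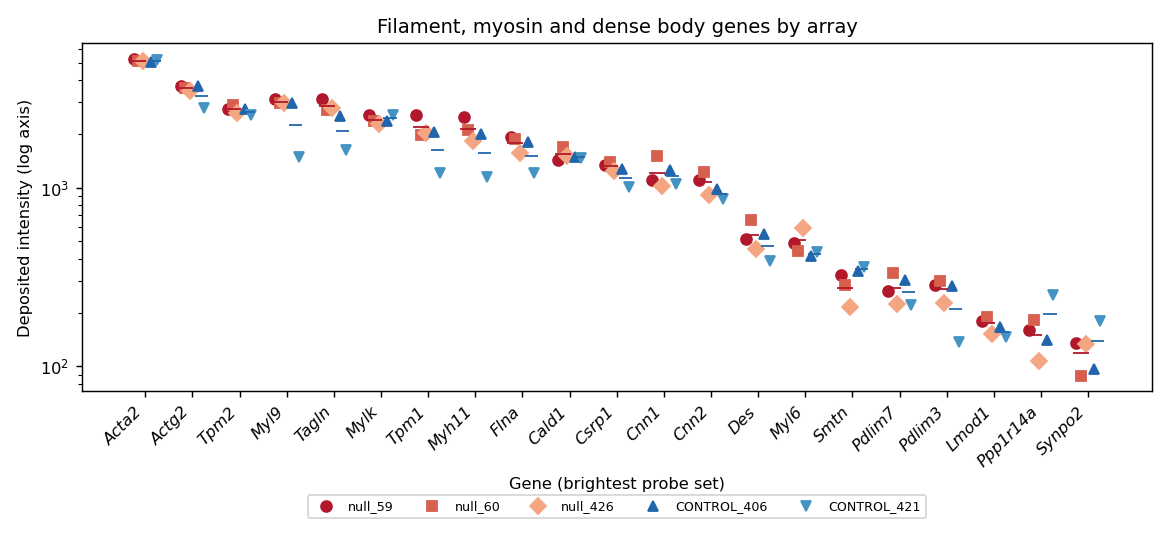
Deposited intensity (log axis) of 21 filament, myosin and dense body genes by their brightest probe sets, set out from left to right by mean level. Each symbol is 1 array, red for the 3 null and blue for the 2 control arrays, and lines mark group means. For Myl9, Tagln, Tpm1, Myh11 and Pdlim3 the CONTROL_421 symbol lies well below the other 4, while for Acta2 all 5 lie together.

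Tropomyosins lie along the actin filament, and the 2 genes measured differed in pattern. Tpm1 had 3 probe sets. Probe set 1423721_at read 2561, 1982 and 2027 in null colons, against 2051 and 1204 in control colons, and 1423049_a_at read 1979, 1428 and 1579 against 1581 and 393. In both, CONTROL_421 was the lowest array and null_59 the highest, and CONTROL_406 lay within the deposited null range. The differences were 0.53 (95% interval 0.02 to 1.04, adjusted p = 0.692) and 1.10 (0.11 to 2.09, adjusted p = 0.664). Against CONTROL_406 alone they were 0.19 and 0.16, and against CONTROL_421 alone 0.88 and 2.04. Probe set 1423049_a_at showed the largest gap between the control arrays of all 54, 3.66-fold higher in CONTROL_406 than in CONTROL_421, and it was the only member probe set to pass in any fit that left out 1 array. That was without CONTROL_406, when the difference was 2.02 (adjusted p = 0.0214, with 0.460% of all probe sets called), and with a single control array left its spread was assumed to be that of the others. Probe set 1456623_at of the same gene read 425.8, 385 and 603 in null colons, against 357 and 348 in control colons. There both control arrays lay below all null arrays, and the difference was 0.42 against CONTROL_406 and 0.39 against CONTROL_421. CONTROL_421 was thus below the null mean in all 3 probe sets of Tpm1, while CONTROL_406 lay outside the deposited null range in this one alone. The 4 probe sets of Tpm2, beta tropomyosin, differed by -0.02 to 0.16. Its brightest read 2772, 2891 and 2603 in null colons and 2766 and 2565 in control colons, with overlapping groups.

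Of the thick filament genes, those of the motor and the regulatory light chain were lowest in CONTROL_421. Myh11, smooth muscle myosin heavy chain, read 2494, 2090 and 1831 in null colons, against 1992 and 1144 in control colons. CONTROL_406 lay within the null range and CONTROL_421 below it, and the difference of 0.57 (95% interval 0.05 to 1.08, adjusted p = 0.669) was 0.21 against CONTROL_406 and 0.92 against CONTROL_421. Its second probe set, 1418122_at, read 31 or less in every array and its difference was -0.0034 (95% interval -0.51 to 0.50). Myl9, the regulatory light chain phosphorylated in contraction, read 3117, 2959 and 2987 in null colons, against 2985 and 1480 in control colons. The control embryos differed 2.01-fold, more than null and control colons did (1.49-fold, 95% interval 0.985 to 2.24, adjusted p = 0.705). The null difference was 0.07 against CONTROL_406 alone and 1.07 against CONTROL_421 alone. Myl6, the essential light chain, read 493, 440 and 593 in null colons and 416 and 437 in control colons, narrowly apart as deposited, with a difference of 0.27 (adjusted p = 0.793).

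The enzymes that set light chain phosphorylation gave a mixed picture. Mylk, myosin light chain kinase, had 3 probe sets. Of these, 1425506_at read 2543, 2363 and 2273 in null colons and 2354 and 2547 in control colons, overlapping, with a difference of -0.00092. Probe set 1425505_at read 1726, 1872 and 1696 in null colons, against 1500 and 1238 in control colons. It had the smallest p of all 54 member probe sets, its null arrays lay above both controls, and its difference was 0.46 (95% interval 0.09 to 0.83, adjusted p = 0.624), with 0.35 against CONTROL_406 and 0.56 against CONTROL_421. The third differed by 0.19. Ppp1r14a, the phosphatase inhibitor CPI-17, ran the other way between the controls. It read 160, 182 and 108 in null colons, against 141 and 252 in control colons, so CONTROL_421 was the highest array. The difference of -0.37 (adjusted p = 0.801) was 0.03 against CONTROL_406 alone and -0.77 against CONTROL_421 alone.

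Dense body and cytoskeletal genes mostly read lowest in CONTROL_421. Flna, filamin A, which crosslinks actin, read 1925, 1880 and 1554 in null colons, against 1801 and 1203 in control colons. Its difference of 0.36 (95% interval -0.08 to 0.79, adjusted p = 0.748) was 0.10 against CONTROL_406 and 0.61 against CONTROL_421. Csrp1, a LIM protein that cooperates with SRF, read 1343, 1397 and 1237 in null colons, against 1266 and 1004 in control colons by its brighter probe set, and both its probe sets gave close differences (0.31 and 0.32). By the brighter one the difference was 0.17 against CONTROL_406 and 0.46 against CONTROL_421. Pdlim3, a PDZ and LIM protein that binds alpha-actinin, read 285, 301 and 227 in null colons, against 282 and 138 in control colons. As deposited, CONTROL_406 lay within the null range and CONTROL_421 below it in all 3 genes. After quantile normalisation both control arrays lay below all null arrays for Flna and Csrp1. For Pdlim3 the difference of 0.40 (-0.17 to 0.97, adjusted p = 0.780) came to -0.03 against CONTROL_406 and 0.83 against CONTROL_421. Des, desmin, the intermediate filament of muscle, read 513, 662 and 457 in null colons, against 553 and 389 in control colons. The groups overlapped, and the difference of 0.24 (adjusted p = 0.814) was 0.02 against CONTROL_406, 0.46 against CONTROL_421 and 0.13 without null_60.

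Smtn and Synpo2 did not follow that order. Smtn, smoothelin, a protein of contractile smooth muscle, read 325, 286 and 215 in null colons, against 344 and 358 in control colons. All null arrays lay below both control arrays, with a difference of -0.34 (95% interval -0.80 to 0.11, adjusted p = 0.767). It was -0.19 without null_426, the lowest array, and -0.17 with arrays weighted by their quality. Synpo2, which binds actin at dense bodies and Z lines, read 135, 88.7 and 133 in null colons, against 96.7 and 179 in control colons. CONTROL_421 was the highest array, and the difference was -0.61 against it and 0.23 against CONTROL_406. Pdlim7, another PDZ and LIM protein, differed by 0.06 by its brightest probe set and 0.16 by the other.

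**Figure D2:**
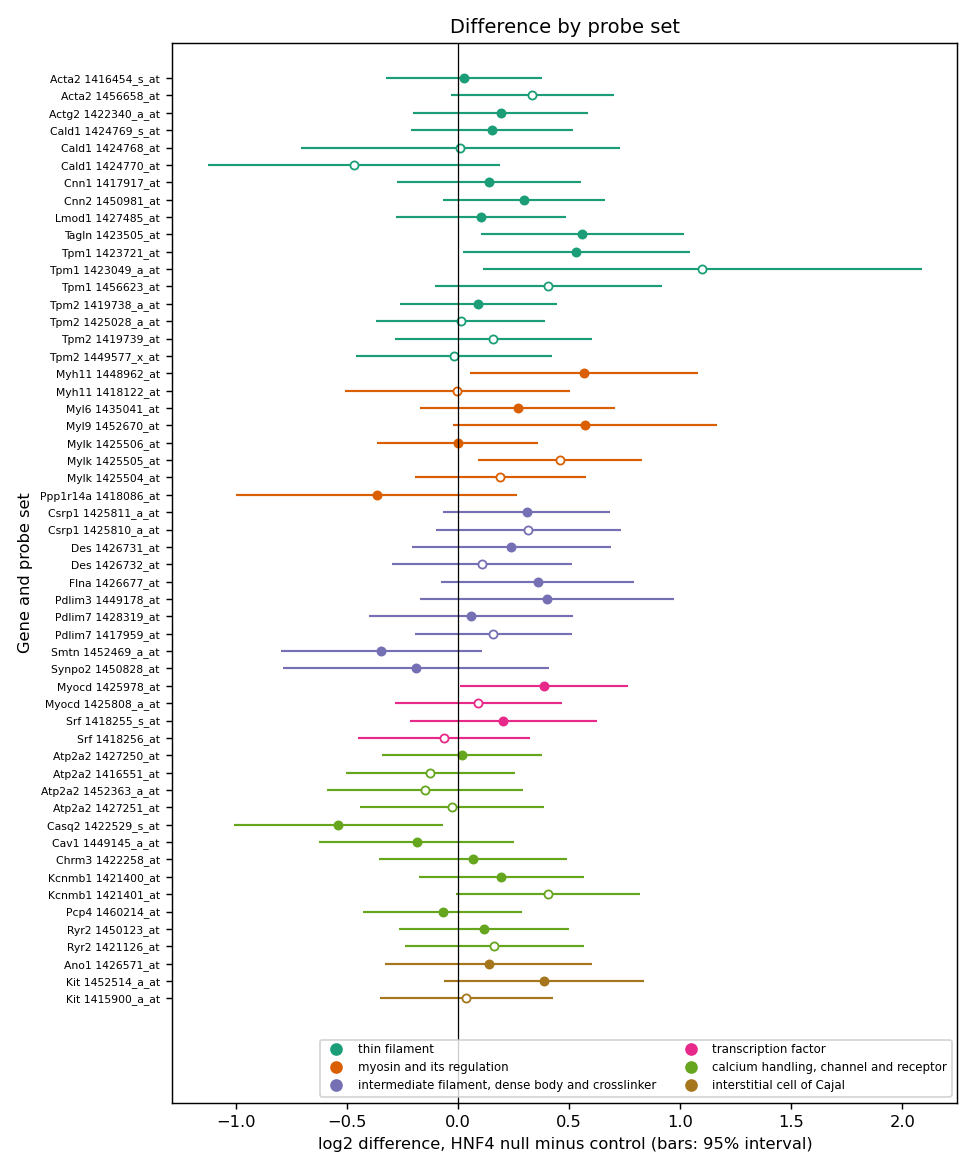
Log2 difference, HNF4 null minus control, of each of the 54 member probe sets with its 95% interval, coloured by role, with filled symbols for the brightest probe set of a gene and open ones for the rest. Intervals that exclude 0 belong to probe sets of Tagln, Tpm1, Myh11, Mylk, Myocd and, below 0, Casq2, and none passed after adjustment.

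Calcium handling genes showed no shared direction. Of their 12 probe sets 6 were above 0, and the median difference was -0.0044. Casq2, calsequestrin 2, which stores calcium in the sarcoplasmic reticulum, read 82.3, 93.4 and 61.3 in null colons, against 108 and 121 in control colons. All null arrays lay below both control arrays, and the difference was -0.54 (95% interval -1.01 to -0.07, adjusted p = 0.653), in the same direction against CONTROL_406 (-0.43) and CONTROL_421 (-0.65). Without null_426, the lowest array, it was -0.37. This probe set of Casq2 was dim, with a mean at percentile 35.8 of all probe sets, and the filter on dim probe sets left it out. Atp2a2, the SERCA2 calcium pump, had 4 probe sets with differences from -0.15 to 0.02 and overlapping groups. Cav1, caveolin 1, a coat protein of caveolae, read 1085, 1030 and 698 in null colons and 1164 and 1061 in control colons, with null_426 the low array. The calcium release channel gene Ryr2 was dim, at 28.4 to 72.3 over both probe sets, and differed by 0.12 and 0.16. Kcnmb1, the beta subunit of the calcium-activated potassium channel, was also dim (37.3 to 90.2) and lay above both control arrays in all null arrays by both its probe sets, with differences of 0.19 and 0.40 that did not pass (adjusted p = 0.815 and 0.702).

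Chrm3, the muscarinic receptor that drives contraction by acetylcholine, read 332, 301 and 402 in null colons and 341 and 323 in control colons. The groups overlapped, with a difference of 0.07 (95% interval -0.35 to 0.49, adjusted p = 0.947). Pcp4, a small calmodulin-binding protein, differed by -0.07 (-0.43 to 0.29).

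For the markers of interstitial cells of Cajal, Kit and Ano1, all 3 probe sets had a difference above 0, as had 52.9% of all probe sets. None of the 3 passed the test. Kit, the receptor tyrosine kinase these cells need, read 177, 190 and 204 in null colons, against 177 and 106 in control colons by its brighter probe set. CONTROL_406 stood beside the lowest null array and CONTROL_421 below, giving a difference of 0.39 (95% interval -0.06 to 0.84, adjusted p = 0.735), with 0.10 against CONTROL_406 and 0.67 against CONTROL_421. The other probe set of Kit differed by 0.04. Ano1, the calcium-activated chloride channel of their pacemaker current, read 256, 308 and 381 in null colons and 263 and 306 in control colons. It spread more among the null embryos than between the groups (difference 0.14, -0.33 to 0.60, adjusted p = 0.897). The difference was 0.27 against CONTROL_406, 0.0053 against CONTROL_421 and -0.025 without null_426.

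**Figure D3:**
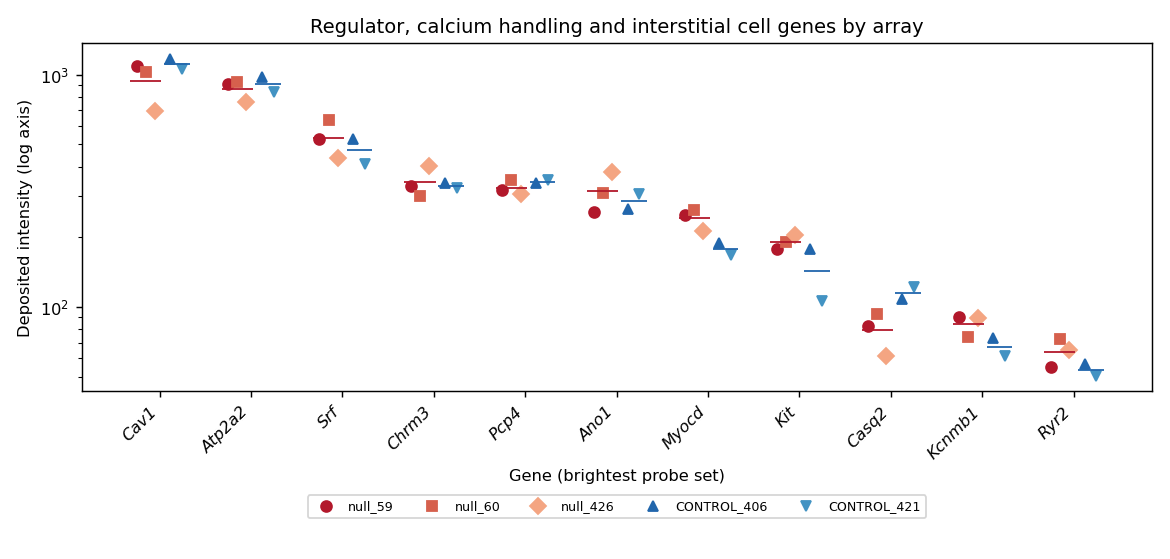
Deposited intensity (log axis) of 11 regulator, calcium handling and interstitial cell genes by their brightest probe sets, with 1 symbol for each array (red null, blue control) and lines at the group means. Myocd and Kcnmb1 are higher and Casq2 lower in all null arrays than in both control arrays, and the groups overlap for the other 8.

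The control embryos were then set against each other. CONTROL_406 was over 1.5-fold higher than CONTROL_421 in 6 member probe sets, 11.1% against 5.65% of all, and over 1.5-fold lower in 2, 3.70% against 4.39%. The 6 were those of Myl9 (2.01-fold), Myh11 (1.64-fold), Pdlim3 (1.82-fold), 2 of Tpm1 (3.66-fold and 1.62-fold) and 1424768_at of Cald1 (2.30-fold), while Ppp1r14a and Synpo2 were the lower ones. The 2 other probe sets of Cald1 differed by -0.03 and -0.08 between the controls, so these probe sets also disagreed. With 1 array on each side, these gaps have no replicate check and no test.

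CONTROL_421 was the lowest of the 5 arrays in 28 of the 54 member probe sets (51.9%), against 22.7% of all probe sets, and the highest in 7 (13.0%) against 22.4%. In the table as deposited it was the lowest in 33 (61.1%) against 31.8% of all, and after median centring in 24 (44.4%) against 22.6%. After quantile normalisation, by brightest probe sets, it was the lowest in 53.1% of the members, against 20.9% of all genes. It was also the lowest in 62.5% of 8 enteric neuron, 44.4% of 9 fibroblast and 100% of 4 mesothelium genes. On each other marker list below the share was 0% to 33.3%. The median deviation of the members from their mean over the 5 arrays was 0.07, 0.08 and 0.05 in null_59, null_60 and null_426, against -0.01 in CONTROL_406 and -0.15 in CONTROL_421. By role, the median of CONTROL_421 was the lowest of the 5 for the thin filament (-0.19), myosin (-0.18), dense body (-0.28), transcription factor (-0.15) and interstitial cell (-0.17) genes, and for calcium handling genes null_426 was the lowest (-0.07) with CONTROL_421 next (-0.06). CONTROL_421 also had the highest Gapdh and the lowest transferrin receptor end ratio of the 5 arrays, while its actin ratio lay within the null range. What part these ratios had in the lower values was not tested.

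**Figure D4:**
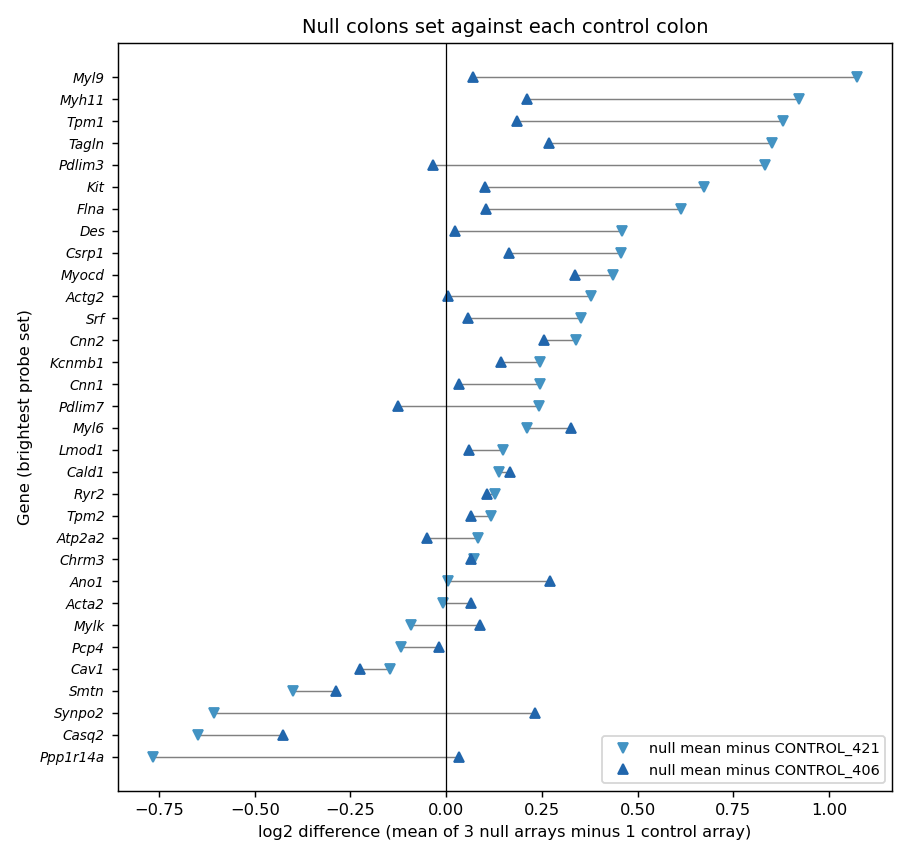
Log2 difference of the mean of the 3 null arrays from CONTROL_421 (light, pointing down) and from CONTROL_406 (dark, pointing up) for the brightest probe set of each of the 32 genes. Both points of a gene share the null arrays, and for Myl9 they lie at 1.07 and 0.07.

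**Figure D5:**
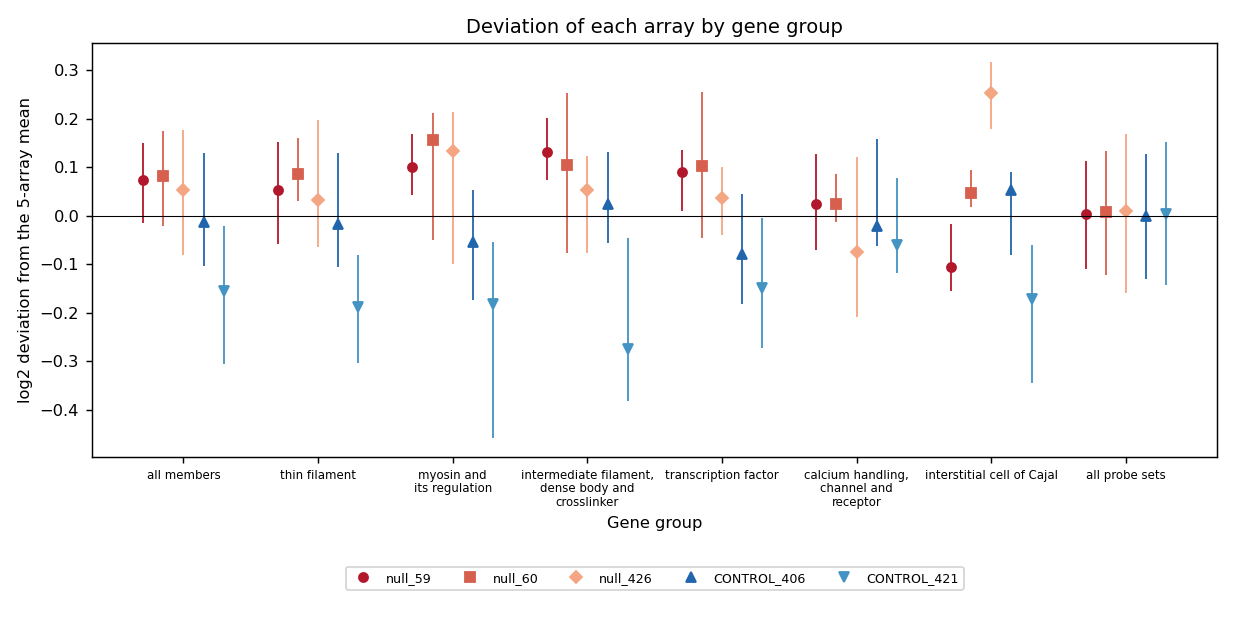
Median log2 deviation of each array from the 5-array mean, by role of the member genes and over all probe sets, with vertical lines from the lower to the upper quartile over probe sets. Over all probe sets the medians of the 5 arrays lie close to 0, and over all members CONTROL_421 lies at -0.15.

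Of 70 further names of the smooth muscle pathway, such as focal contact and cyclic GMP genes, 50 were measured, by 99 probe sets. By limma 0 of these passed, with 4 higher and 2 lower at an unadjusted p under 0.05 (4.04% and 2.02%, against 2.82% and 4.33% of all), and their median difference was 0.04, against 0.02 over all probe sets. By each gene's brightest probe set, the smallest p-values belonged to Foxf2, a forkhead factor of gut mesenchyme (-0.45), Stim1, the calcium sensor of the reticulum (-0.37), Actn4, a non-muscle alpha-actinin (0.37), and Cav2, caveolin 2 (-0.51), with adjusted p from 0.691 to 0.725. CONTROL_421 was the lowest array in 30.3% of these 99 probe sets, against 22.7% of all.

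Markers of other cells in the colon wall were summed by each gene's brightest probe set. The sums are of deposited values, in which CONTROL_421 was the lowest array in 31.8% of all probe sets, against 22.7% after quantile normalisation. The 6 defining genes of smooth muscle summed to 16170, 15670 and 14680 in null colons, against 15090 and 12210 in CONTROL_406 and CONTROL_421, and all 6 were above the median of every array. The 8 enteric neuron genes measured of 9 listed also had their lowest sum in CONTROL_421, at 1267 to 1657 in null colons against 1541 and 1124, as did the 6 of pericytes (1086 to 1341 against 1404 and 1023). After quantile normalisation CONTROL_421 was the lowest array in 5 of the 8 neuron genes and 2 of the 6 pericyte genes. The sum of 4 of 6 mesothelium genes (3450 to 4205 against 4040 and 3269) consisted mostly of Krt19, a keratin that is also on the epithelial list, at 3056 to 3809 against 3672 and 3028. Of the other 3 mesothelium genes, none was above the median of every array. Wt1, a transcription factor of mesothelium, read 89.5, 87.3 and 83.8 in null colons, against 65.3 and 46.8 in control colons, above both controls in all null arrays, with a difference of 0.44 (adjusted p = 0.651). Msln, mesothelin, differed by 0.38 (adjusted p = 0.759), with overlapping groups. The sums of 9 fibroblast genes (8524 to 11660 in null colons against 12220 and 10510) and 10 epithelial genes (12570 to 16260 against 17000 and 15800) were lowest in null_426, and 9 of the epithelial genes were above the median of every array. The epithelial sum was largely that of Krt8 and Krt19, and single genes stood further apart. The 3 epithelial genes lower at an unadjusted p under 0.05 were Krt20, a keratin of mature surface cells (-0.87, adjusted p = 0.378), Epcam, an adhesion molecule (-0.66, adjusted p = 0.387), and Vil1, the brush border protein villin (-0.74, adjusted p = 0.493). Each lay below both controls in all null arrays, as did 5 of the 10 epithelial genes after quantile normalisation (50%, against 11.8% of all genes), while Krt18 then lay above both. For 13 of 14 skeletal muscle genes they were 1216 to 1363 against 1423 and 1267, with the 2 brightest, Acta1 and Ckm, at 231 to 347 in all arrays. Chosen after their values were seen, the sarcomere genes Myh3 and Mylpf read 23.1 or less in every array. Tnni1, with the smallest p of this list, read 66.1, 51.0 and 68.0 in null colons, against 101 and 88.9 in control colons (-0.59, adjusted p = 0.523). Of the 13 skeletal muscle genes 9 had a difference below 0. After quantile normalisation all null arrays lay below both controls in 3 (23.1%, against 11.8% of all genes) and above in 1 (7.69% against 12.6%). For 9 cardiac muscle genes the sums were 1669 to 2270 in null colons against 1684 and 1682, of which Actc1 gave 929 to 1426 against 982 and 1038. The interstitial cell list, 4 of 5 genes, summed to 773 to 928 in null colons against 693 and 721, above both controls in all null arrays. The groups overlapped for each of the 4 genes alone, and Edn3 differed by -0.15. Kit and Ano1, described above, are among them. Sums of enteric glia (5 of 6 genes, 1069 to 1412 against 1296 and 1174), endothelium (8 genes, 1333 to 1762 against 1416 and 1452) and erythroid cells (4 of 7, 884 to 1338 against 947 and 942) had control values within the null range, and those of leukocytes (7 genes, 1057 to 1221 against 1250 and 1309) lay below both controls. Of the 7 leukocyte genes, only Ctss lay below both controls in all null arrays, at 157, 167 and 93.3 against 287 and 252. Its difference was -0.94 (adjusted p = 0.437). Cd68 lay above both controls and the rest overlapped, so the lower leukocyte sum was not shared across the list. What part the mix of cells had in the muscle values was not tested.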

How the data were processed

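Colons of 3 HNF4 null and 2 control embryos were measured by 1 Affymetrix array each, grouped by the titles. RNA was isolated on Qiagen RNeasy mini columns and labelled with biotin, per the labels' protocols. The authors deposited intensities, summarised by probe set on a linear scale, of which a few lay below 0. Their summarisation, scaling and background steps are not given in the sources used here. Of 22690 probe sets, 64 control probe sets were left out. A platform annotation gave 1 symbol to 20380 probe sets, several to 691 and none to 1555, and 20351 matched RefSeq genes (GRCm38.p6) by gene ID, with 0 symbols changed. Probe sets with several symbols named no gene.

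Negative values were replaced by 0, and all were taken as log2(intensity + 16) and quantile normalised, with no filter on dim probe sets. Groups were compared in a two-sided limma 3.58.1 fit with no covariate (R 4.3.3, lmFit, eBayes). Benjamini-Hochberg adjustment ran over the 22626 probe sets, with a threshold of 0.05 and 9.33 total degrees of freedom. The code was tested on simulated data. A gene's brightest probe set had the highest mean over all arrays. Values per array were given for the 12 members with the smallest p by that probe set and for 10 core members, and briefly for further ones chosen after their values were seen. The further pathway genes named were the 4 with the smallest p, and marker genes were named from the 2 brightest of a list, with Myh3, Mylpf, Tnni1, Wt1, Edn3, Cd68 and the epithelial genes Krt18, Krt20, Vil1 and Epcam added after their values were seen. The members and lists were chosen with earlier results of these data known. Nothing in the labels says whether the embryos shared a litter, and the number of arrays limits the precision. Alternatives were other scalings, pseudocounts of 1 and 64, a filter on dim probe sets, an intensity trend, array weights, averaging over probe sets of the same gene and each array left out.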

Additional observations from a re-analysis of the deposited data

How the results depend on the processing

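With 5 arrays, modest differences cannot be settled for any member, and the cause of the changes below was not tested. No paired analysis was possible because the groups share no replicate number. Of all probe sets, 28 passed; 14 did with a pseudocount of 1, 17 without dim probe sets, 45 with array weights and 8 to 104 with 1 array left out. Member probe sets that passed numbered 0 in every other setting and 0 to 1 with 1 array left out, and further pathway probe sets 0 throughout. At an unadjusted p under 0.05, 6 members were higher and 1 lower by limma; there were 10 and 2 with array weights, 0 lower without dim probe sets (fewer probe sets tested), and 0 to 11 higher and 0 to 3 lower with 1 array left out. The numbers over all 22626 probe sets moved as well, from 638 higher and 980 lower by limma to 1100 and 1393 with array weights. With 1 null array left out they were 388 to 747 higher and 682 to 1387 lower. The rise among members with array weights thus went with a rise over all probe sets. The members' median difference of 0.14 was 0.089 after median centring, 0.11 with a pseudocount of 64, 0.10 with array weights and 0.081 (without CONTROL_421) to 0.19 (without CONTROL_406) with 1 array left out. Null arrays lay above both controls in 17 members, in 9 as deposited, in 9 after median centring and in 18 to 31 with 1 array left out, and below both in 2, in 1 without dim probe sets and in 3 to 8 with 1 array left out. With 1 array left out, fewer arrays have to lie apart, which any probe set meets more easily. The share over all probe sets was not computed for those fits, so their counts say nothing particular to the members. The median of CONTROL_406 minus CONTROL_421 over members, 0.11, was 0.20 as deposited and 0.080 with a pseudocount of 64, and 1 member rather than 2 was over 1.5-fold lower without dim probe sets. Differences turned sign for Acta2 (0.028) with median centring (-0.044; 1 array left out, -0.0077 to 0.067), for Ano1 (0.14) with array weights (-0.025; 1 left out, -0.025 to 0.27) and for Pdlim3 (0.40) with 1 array left out (-0.033 to 0.83, the lowest without CONTROL_421).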
